A study of Rattus norvegicus with 4 samples.

Results

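The carnitine acyl shuttle is followed here through 8 genes, picked by symbol from the 14137 distinct gene identifiers of a rat heart cell dataset: Crat, Crot, Cpt1a, Cpt1b, Cpt1c, Cpt2, Slc25a20 and Slc22a5. Each symbol matched 1 identifier, and all 8 were expressed highly enough to be tested. RNA was sequenced from neonatal rat ventricular myocytes (NRVMs), a primary culture of heart muscle cells from newborn animals, at day 5 after lentiviral infection. The control group (2 libraries, labelled WT) received a virus with a control short hairpin RNA, and the Crat hairpin group (2 libraries, labelled KO) a virus with a hairpin against Crat; a hairpin lowers a transcript and deletes no gene, in spite of the KO label. The sources used here do not give the strain, the age in days, the hairpin sequence or whether replicate libraries are from separate cultures; p-values measure only the spread between these libraries, which may be technical.

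Long-chain fatty acids cannot cross the inner mitochondrial membrane as coenzyme A (CoA) esters, so cells move them as carnitine esters. Slc22a5 (OCTN2) brings carnitine into the cell, the CPT1 enzymes (Cpt1a, Cpt1b, Cpt1c) load an acyl group onto carnitine, Slc25a20 carries the acylcarnitine inward, and Cpt2 returns the acyl group to CoA for beta-oxidation. Crat and Crot belong to the same enzyme family but act on shorter chains: Crat exchanges acetyl and other short groups between CoA and carnitine, mainly in mitochondria, and Crot acts on medium chains in peroxisomes. The heart draws much of its energy from this route, and the muscle isoform Cpt1b is the form usually linked to adult heart muscle, while Cpt1a is the form of liver and of the immature heart.

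Values are RPM, read counts scaled to each library's total with no division by gene length, so levels are compared between libraries and not between genes. Depth was uneven. The libraries held 23680064 and 1321735 reads in replicates 1 and 2 of the control hairpin, and 321516 and 1622998 in those of the Crat hairpin. A single read was therefore worth 3.11 RPM in Crat hairpin replicate 1, which held between 5 and 34 reads of each shuttle gene, against 0.0422 RPM in control replicate 1. The groups also differed in other transcripts. Summed over 8 heart muscle markers with a row, levels were 29022 and 29584 RPM with the control hairpin and 11278 and 11659 RPM with the Crat hairpin, with 7 of 8 called lower and 0 higher; Myh6 and Actc1 were the most abundant. Sums over 8 fibroblast markers were 22763 and 23742 against 16780 and 17101 RPM (2 called higher, 4 lower). Col1a1 and Col3a1, the most abundant, were among the 4 lower. Pdgfra and Dcn, named after their values were seen, were the 2 higher, at log2 fold changes of 2.10 and 1.12. Over 7 smooth muscle and pericyte markers sums were 5164 and 5271 against 1863 and 1786 RPM (1 higher, 5 lower, with Acta2 and Tagln the most abundant). The 5 leukocyte markers stood at 32.6, 32.5, 37.3 and 32.7 RPM in all, with 0 called by limma, also at an unadjusted p under 0.05, and 0 by edgeR (Fcer1g and Laptm5 the most abundant), and 5 endothelial markers at 27.2, 31.0, 52.9 and 54.2 RPM, with 1 of 4 tested called higher (Kdr and Tek the most abundant). The 9 interferon-stimulated genes with a row rose from sums of 210 and 161 RPM to 8161 and 8363 RPM, and 9 of 9 were called higher (Irf7 and Ifit3 the most abundant). No marker with a row was at 0 in every library. The part of these differences in the shuttle results was not tested, and in whole cultures fewer cells of a type cannot be told apart from less RNA per cell.

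Crat, the transcript targeted by the hairpin, was lower in both Crat hairpin libraries. It stood at 148 and 156 RPM (3496 and 206 reads) with the control hairpin, a mean of 152 ± 5.81 (SD, n = 2). In the Crat hairpin libraries it stood at 24.9 and 19.7 RPM (8 and 32 reads), a mean of 22.3 ± 3.65 (SD, n = 2), which was 14.7% of the control mean. The groups did not overlap, and neither did the 95% Poisson counting intervals, whose nearest bounds were 135 RPM in control replicate 2 and 49.0 RPM in Crat hairpin replicate 1. The log2 fold change, on the log2(RPM + 1) scale used throughout, was -2.72 ± 0.19 (SE; limma, Benjamini-Hochberg adjusted p = 7.3e-06), and 22 of the 12949 genes tested had a lower value. The error expected from counting reads alone was 0.29, larger than the SE. Intervals and counting errors cover counting error only.

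The make-up of the reads of the acyltransferase family differed between the groups. Crat made up 52.2% of the reads of the 6 carnitine acyltransferases in control replicate 1 (exact binomial 95% interval 51.0 to 53.4%) and 56.0% in control replicate 2 (50.7 to 61.1%). It made up 7.55% (3.31 to 14.3%) and 6.46% (4.46 to 9.0%) in Crat hairpin replicates 1 and 2. Such shares depend on transcript length, so they are compared between libraries only, but they do not depend on how a library is scaled. The summed level of all 6 enzymes was 283 and 278 RPM with the control hairpin and 330 and 305 RPM with the Crat hairpin, 1.13-fold higher on the means. Scaling by median of ratios divided values by 0.93 and 0.94 with the control hairpin and by 1.07 and 1.07 with the Crat hairpin. Those factors differ between the groups by about as much as this sum does, so no rise of the sum is claimed. Without Crat, the other 5 summed to 135 and 123 RPM against 305 and 285 RPM, 2.29-fold higher on the means. The Cpt2 share of family reads was 5.90% and 5.16% with the control hairpin and 21.7% and 21.4% with the Crat hairpin. Family reads include those of Crat, so a lower Crat share by itself raises the share of every other enzyme. The difference in the Cpt2 share is therefore in part the fall of Crat, and is no separate result.

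**Figure D1:**
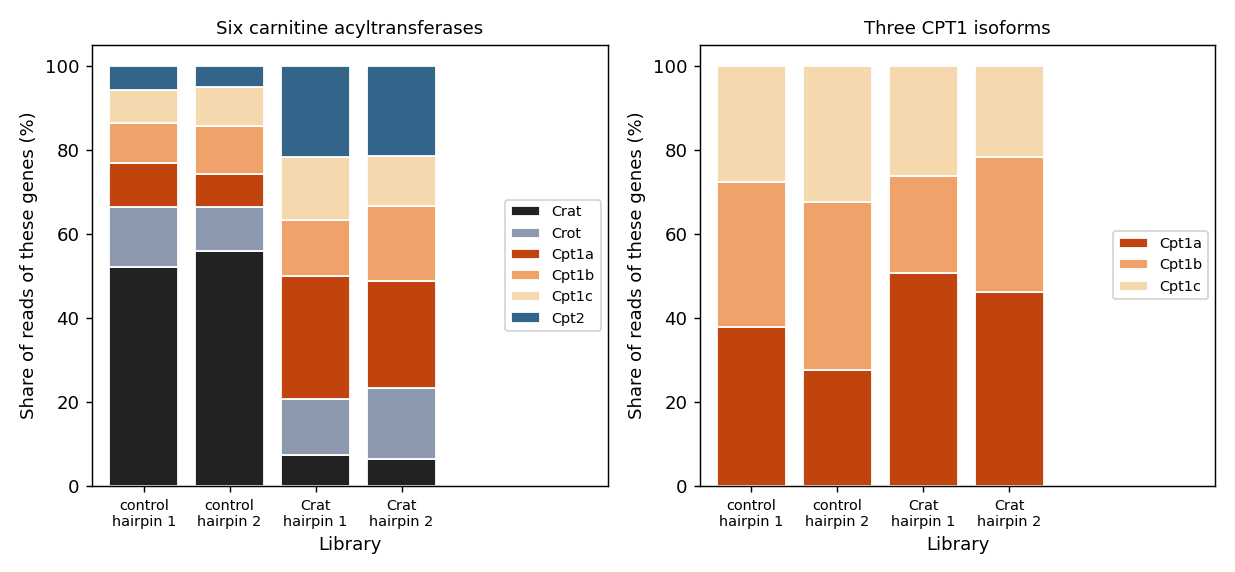
Share of reads (percent, vertical axis) of each of the 6 carnitine acyltransferases (left) and of each of the 3 CPT1 isoforms (right) in each of the 4 libraries; each bar sums to 100%. Crat takes 52.2% and 56.0% of the family reads with the control hairpin and 7.55% and 6.46% with the Crat hairpin, and the Cpt1a share of CPT1 reads is 37.8% and 27.6% with the control hairpin and 50.8% and 46.2% with the Crat hairpin.

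The remaining 7 shuttle genes all had higher values with the Crat hairpin, and 3 of them, Cpt2, Cpt1a and Slc25a20, passed the test. Of all genes tested, limma called 12.6% higher and 6.36% lower, against 3 and 1 of the 8 shuttle genes. The median log2 fold change of the 7 was 0.82, beside 0.15 over all 12949 genes. In all 8 genes the groups did not overlap, which also held, with the Crat hairpin libraries higher, in 39.1% of all genes and, with them lower, in 21.7%. Scaling by median of ratios lowered the median of all genes to -0.03 and moved the calls over all genes from 1631 higher and 823 lower to 1044 and 1254. Shares called were then 8.06% higher and 9.68% lower. All 7 genes kept a positive value by that scaling, and Cpt2 and Cpt1a kept their calls. At an adjusted p-value under 0.05, the authors' deposited table had 4.91% of identifiers higher and 5.6% lower. The direction was taken here from the group means in RPM. Crat, Cpt2 and Cpt1a were among the identifiers that passed (Crat adjusted p = 5.4e-19 in the authors' test).

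**Figure D2:**
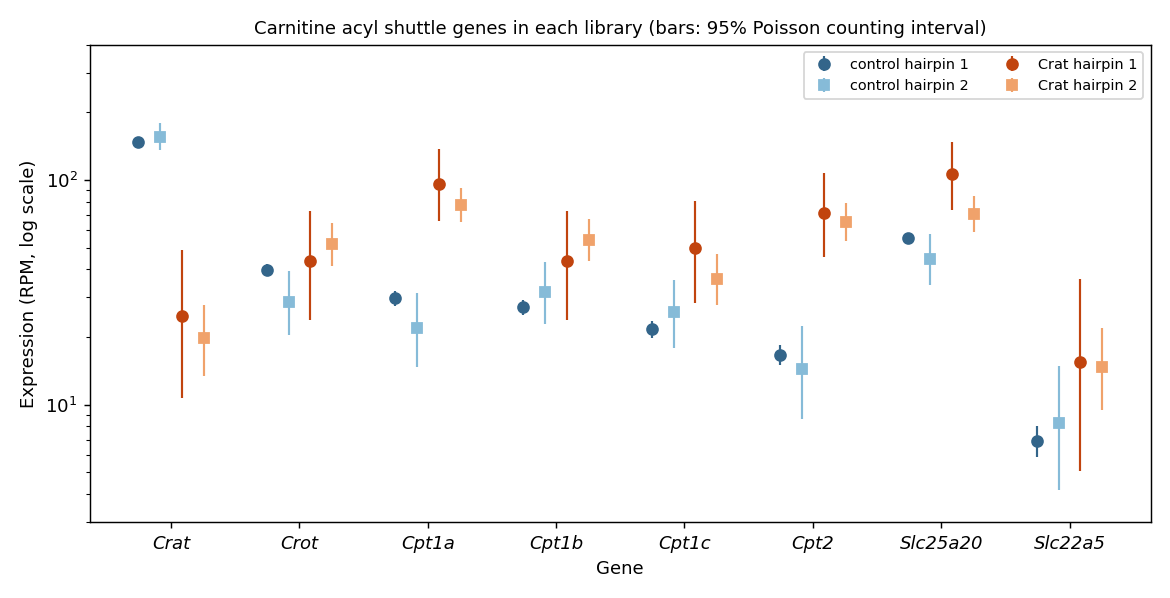
Expression in RPM (vertical log axis) of the 8 shuttle genes in the 4 libraries, with points for libraries and bars for 95% Poisson counting intervals. Crat is far lower with the Crat hairpin (24.9 and 19.7 against 148 and 156 RPM), Cpt2 and Cpt1a lie clearly higher there, and the counting intervals of Crot, Cpt1b, Cpt1c and Slc22a5 overlap for some pair of libraries from different groups.

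Cpt2, the inner-membrane enzyme that hands the acyl group back to CoA, had the largest rise of the 8. It stood at 16.7 and 14.4 RPM (395 and 19 reads) with the control hairpin. In the Crat hairpin libraries it stood at 71.5 and 65.3 RPM (23 and 106 reads). Replicates lay close together in both groups, and the means were 15.5 ± 1.63 and 68.4 ± 4.4 RPM (SD, n = 2 each), a 4.41-fold difference. The log2 fold change was 2.07 ± 0.23 (SE; limma adjusted p = 2.1e-04), and 292 of the tested genes had a higher value. The error expected from counting reads alone was 0.237, larger than the SE of 0.230, so the replicates lay closer together than their reads can resolve. In the authors' deposited table the adjusted p-value of Cpt2 was 1.9e-05. With every library thinned to the depth of the shallowest in 1 random draw, the Cpt2 log2 fold change was 2.11 and the limma adjusted p = 0.101.

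Cpt1a, the CPT1 isoform of liver and immature heart, also rose. It stood at 29.7 and 21.9 RPM (703 and 29 reads) with the control hairpin. In the Crat hairpin libraries the values were 96.4 and 77.6 RPM (31 and 126 reads). Both values with the Crat hairpin lay above both controls, and the means were 25.8 ± 5.48 and 87.0 ± 13.3 RPM (SD, n = 2 each), a 3.37-fold difference. The log2 fold change was 1.72 ± 0.22 (SE; limma adjusted p = 5.5e-04), and the authors' deposited table gave Cpt1a an adjusted p-value of 2.6e-04. The limma call on Cpt1a was lost without a variance trend (adjusted p = 0.0640) and after thinning (adjusted p = 0.0758), at log2 fold changes of 1.72 and 1.83.

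Cpt1b, the muscle isoform, and Cpt1c, an isoform best known from neurons, had smaller differences that did not pass. Cpt1b stood at 27.2 and 31.8 RPM with the control hairpin and at 43.5 and 54.2 RPM (14 and 88 reads) with the Crat hairpin. Its log2 fold change was 0.71 ± 0.23 (SE; limma adjusted p = 0.0584), with an unadjusted 95% interval of 0.20 to 1.22. Cpt1c stood at 21.7 and 25.7 RPM with the control hairpin and at 49.8 and 36.4 RPM (16 and 59 reads) with the Crat hairpin. Its log2 fold change was 0.82 ± 0.26 (limma adjusted p = 0.0512), with an unadjusted 95% interval of 0.25 to 1.40. Both lay at the edge of the threshold, and edgeR's quasi-likelihood test on the reads called both (adjusted p = 0.00255 for Cpt1b at 0.70, and 0.0305 for Cpt1c at 0.60), in a test that called 13.7% of all genes higher and 15.9% lower. Neither Cpt1b nor Cpt1c passed by median of ratios (adjusted p = 0.160 and 0.126), in DESeq2 (0.381 and 0.434) or in the authors' deposited table (0.498 and 0.547). With 1 library left out the log2 fold change ran from 0.55 to 0.86 for Cpt1b and from 0.60 to 1.04 for Cpt1c.

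The balance of the outer-membrane step was examined within libraries. Cpt1a held 37.8% (exact binomial 95% interval 35.6 to 40.0%) and 27.6% (19.3 to 37.2%) of the CPT1 reads with the control hairpin. It held 50.8% (37.7 to 63.9%) and 46.2% (40.1 to 52.3%) with the Crat hairpin. The Cpt1a share was higher in both Crat hairpin libraries, although the interval of Crat hairpin replicate 1 reached below the upper bound of control replicate 1. The log2 ratio of Cpt1a to Cpt1b was 0.12 and -0.51 with the control hairpin and 1.13 and 0.51 with the Crat hairpin. The difference between groups was 1.02 with a pooled SD of 0.44 (two-sided exact permutation p = 0.333, the smallest that 2 libraries against 2 allow). Summed over the 3 isoforms, CPT1 stood at 78.5 and 79.4 RPM with the control hairpin and at 190 and 168 RPM with the Crat hairpin, 2.27-fold higher on the means.

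Slc25a20, the carrier that exchanges acylcarnitine for carnitine across the inner membrane, passed the test by a narrow margin. It stood at 55.2 and 44.6 RPM (1308 and 59 reads) with the control hairpin. In the Crat hairpin libraries it stood at 106 and 70.9 RPM (34 and 115 reads). Counting intervals did not overlap, with nearest bounds of 58.3 and 58.5 RPM. The Crat hairpin libraries differed from each other more than the controls did, with means of 88.3 ± 24.7 and 49.9 ± 7.49 RPM (SD, n = 2 each). The log2 fold change was 0.79 ± 0.22 (SE; limma adjusted p = 0.0336). It was 0.60 by median of ratios (adjusted p = 0.0959) and 0.33 in edgeR (adjusted p = 0.111), and the Slc25a20 call was lost there, in DESeq2 and in the authors' deposited table (adjusted p = 0.429). With 1 library left out the Slc25a20 log2 fold change ran from 0.50 to 1.08.

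Slc22a5, the plasma membrane carnitine carrier, was the least abundant in reads. It stood at 6.88 and 8.32 RPM (163 and 11 reads) with the control hairpin and at 15.6 and 14.8 RPM (5 and 24 reads) with the Crat hairpin. Its log2 fold change of 0.92 ± 0.38 (SE) did not pass (limma adjusted p = 0.133; unadjusted 95% interval 0.06 to 1.77), and the error expected from counting reads alone was 0.42. The identifier of Slc22a5 stands on a second row with the symbol LOC303140 and the same values. Crot, the peroxisomal octanoyltransferase, stood at 39.8 and 28.8 RPM (942 and 38 reads) with the control hairpin and at 43.5 and 51.8 RPM (14 and 84 reads) with the Crat hairpin. The Crot log2 fold change of 0.48 ± 0.24 (SE) was the smallest of the 8 and did not pass (limma adjusted p = 0.204; unadjusted 95% interval -0.05 to 1.01). It was 0.29 by median of ratios, 0.28 by TMM scaling and in DESeq2, 0.19 in edgeR, 0.18 in voom and 0.14 after thinning. With 1 library left out the Crot value ran from 0.25 to 0.70 and that of Slc22a5 from 0.79 to 1.04.

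Ordered by log2 fold change, the shuttle genes ran from Crat at -2.72 through Crot at 0.48, Cpt1b at 0.71, Slc25a20 at 0.79, Cpt1c at 0.82 and Slc22a5 at 0.92 to Cpt1a at 1.72 and Cpt2 at 2.07. The unadjusted 95% intervals of the 5 genes from Crot to Slc22a5 all overlapped, so their order is not resolved. Those of Slc25a20 (up to 1.28), Cpt1c (up to 1.40) and Slc22a5 (up to 1.77) also reached into that of Cpt1a (1.22 to 2.22). The interval of Cpt2 (1.55 to 2.59) overlapped those of Cpt1a and Slc22a5. The intervals of Cpt2 and of Crot, Cpt1b, Slc25a20 and Cpt1c did not overlap.

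**Figure D3:**
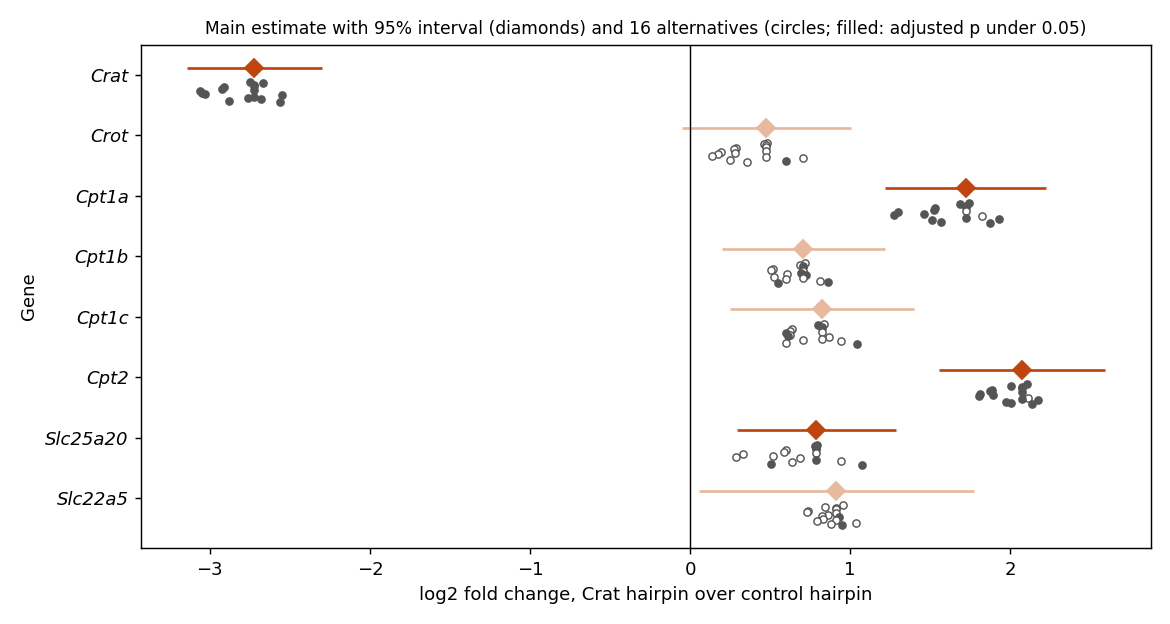
Log2 fold change of each shuttle gene, Crat hairpin over control hairpin (horizontal axis): diamonds with bars are the limma estimate and its unadjusted 95% interval, dark where adjusted p is under 0.05, and circles are the 16 alternatives, filled where adjusted p is under 0.05. Crat is filled in all 16, Cpt2 in 15 and Cpt1a in 14, whereas Slc25a20 is filled in 6; every circle of the 7 other genes lies above 0.

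The start regions of the 3 genes that rose are shown because these genes passed the main test, Slc25a20 narrowly. They are RefSeq windows of 250 bases before and 50 bases after the annotated start, on the assembly GRCr8, which is not the build named for the expression values (mRatBN7.2). Windows were matched by symbol for 6 of the 8 genes. Capitals mark the GC box GGGCGG, on either strand.
Cpt2 promoter, GRCr8 chr5:127910769-127911068, minus strand: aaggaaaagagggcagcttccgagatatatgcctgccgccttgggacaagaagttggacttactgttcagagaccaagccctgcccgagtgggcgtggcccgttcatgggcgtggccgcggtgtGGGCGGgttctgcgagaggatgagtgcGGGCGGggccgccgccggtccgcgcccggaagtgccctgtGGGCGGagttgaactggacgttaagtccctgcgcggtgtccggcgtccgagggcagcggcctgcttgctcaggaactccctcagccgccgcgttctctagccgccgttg
Cpt1a promoter, GRCr8 chr1:209995910-209996209, plus strand: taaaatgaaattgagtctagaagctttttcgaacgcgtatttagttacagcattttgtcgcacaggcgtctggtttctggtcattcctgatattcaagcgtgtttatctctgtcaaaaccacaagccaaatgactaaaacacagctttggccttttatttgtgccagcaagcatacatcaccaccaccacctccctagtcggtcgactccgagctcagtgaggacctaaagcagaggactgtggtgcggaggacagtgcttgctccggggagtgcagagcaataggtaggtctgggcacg
Slc25a20 promoter, GRCr8 chr8:118243323-118243622, plus strand: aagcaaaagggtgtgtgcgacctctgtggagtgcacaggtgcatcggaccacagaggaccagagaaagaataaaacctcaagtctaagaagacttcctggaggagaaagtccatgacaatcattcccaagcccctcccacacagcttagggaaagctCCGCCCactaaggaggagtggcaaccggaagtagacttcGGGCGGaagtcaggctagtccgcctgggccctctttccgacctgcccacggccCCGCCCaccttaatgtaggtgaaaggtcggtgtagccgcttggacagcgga
The Cpt2 window held 3 GC boxes, the Slc25a20 window 3 and the Cpt1a window 0. A GC box was found in 33.1% of all 33469 RefSeq windows of this length. Base composition differed likewise, at 66.7% G and C for Cpt2, 56.7% for Slc25a20 and 48.3% for Cpt1a, beside a median of 51.7% over all windows. Crat, which was lower with the Crat hairpin, had 2 GC boxes, and Crot and Slc22a5, which did not pass, had 3 each. The nuclear receptor half-site AGGTCA, its direct repeat AGGTCANAGGTCA bound by PPAR, the extended half-site TCAAGGTCA and the interferon response core GAAANNGAAA were searched on both strands. The half-site is contained in the direct repeat and in the extended half-site. None of these 4 letter strings was present in the windows of the 6 genes, while 16.2%, 0.0538%, 0.433% and 3.92% of all windows held them. The box CCAAT was found in Crot alone of the 6, and in 37.5% of all windows. These are letters in a short window and say nothing of binding elsewhere at these genes. RefSeq models overlap Cpt1a (a long non-coding RNA), Cpt2 (a long non-coding RNA) and Slc25a20 (a long non-coding RNA and a protein-coding model), and the sources used here do not say whether counting used strand, so reads of these genes and of overlapping models may not be separable.

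Genes next to the shuttle genes on GRCr8 were also read out, a choice made after values were seen. Ptpa and Dolpp1, the protein-coding neighbours of Crat, had log2 fold changes of 0.13 ± 0.14 and -0.23 ± 0.39 (SE; limma adjusted p = 0.546 and 0.729). Chkb, the choline kinase gene beside Cpt1b, had 0.50 ± 0.25 (adjusted p = 0.215), and Czib beside Cpt2 and Mrpl21 beside Cpt1a had 0.17 and 0.10 (adjusted p = 0.734 and 0.862). Beside Crot, Tmem243 had 1.33 ± 0.43 (adjusted p = 0.0589) and Abcb4 -1.38 ± 0.98 (adjusted p = 0.375). Arih2 and Prkar2a beside Slc25a20 had 0.20 and 0.18, and Prmt1 beside Cpt1c 0.02 (adjusted p = 0.504, 0.591 and 0.941). Irf1, a transcription factor of the interferon response and the neighbour of Slc22a5, stood at 21.7 and 15.1 RPM with the control hairpin and rose by 3.01 ± 0.21 to 146 and 160 RPM (log2 fold change ± SE; limma adjusted p = 8.8e-06). Of the 11 neighbours tested, 1 rose and 0 fell, beside 12.6% and 6.36% of all genes. The remaining neighbours had no row or were not tested.

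The genes most like Crat over the 4 libraries were Ckm, Mmd, Atcay, ND4L and Esm1, by the root mean square difference of centred log2(RPM + 1) values among 10056 other genes. The closest was Ckm, the creatine kinase of muscle, at a difference of 0.12, with 110 and 134 RPM with the control hairpin and 21.8 and 18.5 RPM with the Crat hairpin. ND4L is a complex I subunit encoded by mitochondrial DNA; Atcay and Esm1 rest on 1 read each in Crat hairpin replicate 1. The genes most like Cpt2 were Rnf114, Ccl20, Psme2, Pdgfra and RT1-M3-1, at differences of 0.02 to 0.04. Cpt2, Ccl20 and RT1-M3-1 rest on 23, 20 and 11 reads in Crat hairpin replicate 1. The error expected in the Cpt2 log2 fold change from counting reads alone was 0.24, so this order is not resolved. Rnf114 stood at 59.8 and 52.2 RPM with the control hairpin and at 252 and 235 RPM with the Crat hairpin. Psme2 is a proteasome activator subunit, Ccl20 a chemokine and Pdgfra a growth factor receptor of fibroblasts. These genes were chosen for their likeness, so their values are a description.

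Genes around the shuttle were taken from lists of 70 genes, of which 58 had a row and 57 were tested. In all 12 rose and 7 fell, beside 12.6% and 6.36% of all genes, and by median of ratios 8 rose and 13 fell. Carnitine synthesis went both ways. Tmlhe, the first enzyme of the route, fell from 20.7 and 21.9 to 6.22 and 10.5 RPM (log2 fold change -1.29 ± 0.38, adjusted p = 0.0399), with 2 reads in Crat hairpin replicate 1. Aldh9a1, the aldehyde dehydrogenase of the route, rose by 0.56 ± 0.16 (adjusted p = 0.0384), a call lost by median of ratios at 0.37 (adjusted p = 0.160). Bbox1, the last enzyme, was not analysed here. Of 6 other listed carriers only Slc25a29 had a row, with a log2 fold change of -0.15 (adjusted p = 0.894), and Chat, the choline relative of the enzyme family, was not analysed here.

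Among 10 tested genes that supply acyl-CoA or control CPT1, 4 rose and 1 fell (3 and 2 by median of ratios), with a list median of -0.05. Acacb makes the malonyl-CoA that inhibits CPT1, and it rose from 47.5 and 37.1 to 128 and 115 RPM (1.5 ± 0.18, limma adjusted p = 3.1e-04). Mlycd, which removes malonyl-CoA, rose by 0.82 ± 0.22 (adjusted p = 0.0278), though not by median of ratios, at 0.63 (adjusted p = 0.0792). Acsl1, the main long-chain acyl-CoA synthetase of heart, rose from 52.9 and 63.6 to 156 and 130 RPM (1.28 ± 0.16, adjusted p = 4.9e-04). Prkaa2, a catalytic subunit of AMP-activated kinase, which phosphorylates the acetyl-CoA carboxylases, rose by 0.85 ± 0.16 (adjusted p = 0.00446). The gene that fell, named because the count is small, was Dbi, the acyl-CoA binding protein, at -0.60 (adjusted p = 0.0154). Acacb and Mlycd, which act in opposite directions on malonyl-CoA, were thus both higher.

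The PPAR receptors and coactivators mostly did not pass, while several known PPAR targets rose. Of 8 receptor and coactivator genes 1 rose and 0 fell (0 and 0 by median of ratios), with a list median of -0.05; Rxrb and Ppard, the most abundant, had log2 fold changes of -0.05 and -0.26 (adjusted p = 0.876 and 0.496). The gene that rose, named after its value was seen, was Esrra, an orphan receptor of mitochondrial genes, at 1.0 ± 0.28 (adjusted p = 0.0324; 0.81 and adjusted p = 0.0745 by median of ratios). Of 5 tested PPAR targets 3 rose and 0 fell, with a list median of 1.15. Angptl4, a lipase inhibitor, went from 4.94 and 4.54 to 112 and 101 RPM, Fabp3, the fatty acid binding protein of heart, from 48.9 and 56.7 to 236 and 207 RPM, and the lipid droplet protein Plin2 rose by 0.84 ± 0.12 (limma adjusted p = 8.9e-04).

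**Figure D4:**
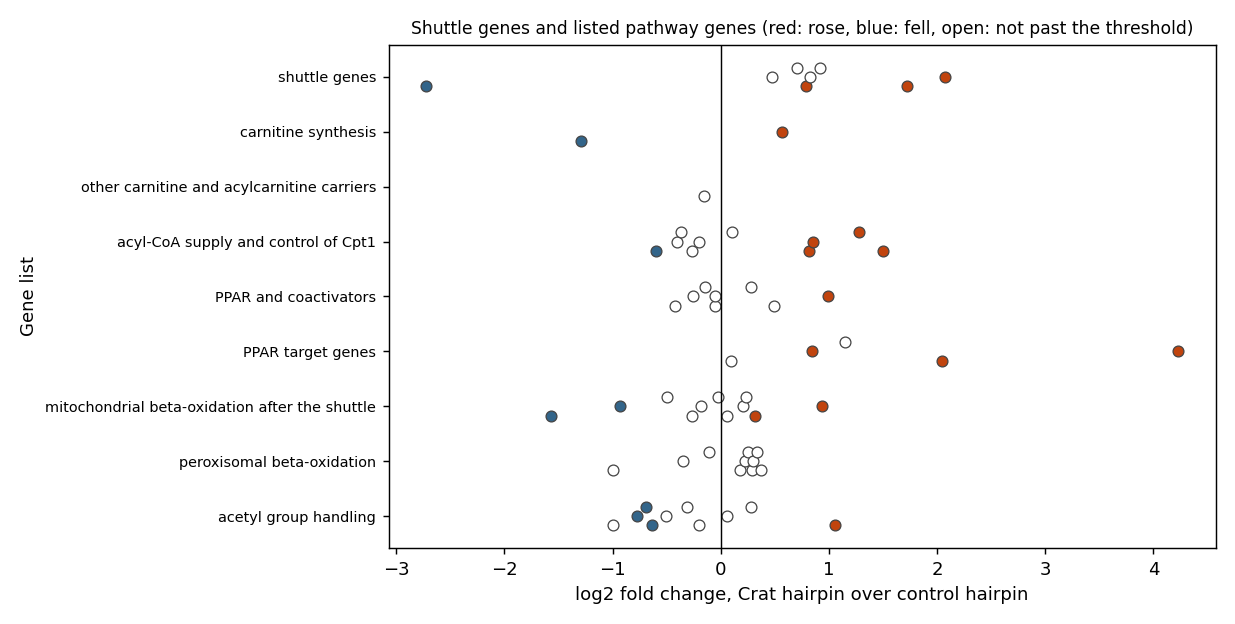
Log2 fold change, Crat hairpin over control hairpin (horizontal axis), of the 8 shuttle genes and of each tested gene of 8 surrounding lists (rows); red points rose, blue points fell and open points did not pass. Among the shuttle genes 3 points are red and 1, Crat, is blue; the peroxisomal list holds open points only.

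The enzymes that use what the shuttle delivers did not follow Cpt2 and Cpt1a as a group. Of 11 mitochondrial beta-oxidation genes 2 rose and 2 fell (1 and 3 by median of ratios), with a list median of -0.02. The medium-chain dehydrogenase Acadm fell from 139 and 117 to 37.3 and 48.1 RPM (-1.56 ± 0.18, limma adjusted p = 2.9e-04), and the long-chain dehydrogenase Acadl fell from 289 and 263 to 156 and 134 RPM (-0.93 ± 0.12, adjusted p = 4.3e-04). Etfa, which takes electrons from these dehydrogenases, rose by 0.94 ± 0.15 (adjusted p = 0.00239), and the trifunctional protein subunit Hadha had 0.32 ± 0.09 (adjusted p = 0.0368), but 0.13 and adjusted p = 0.401 by median of ratios. Of 10 peroxisomal beta-oxidation genes, the setting in which Crot works, 0 passed limma in either direction. At an unadjusted p under 0.05 limma had 0 higher and 2 lower. EdgeR and median of ratios each called 0 higher and 2 lower, where they called 15.9% and 9.68% of all genes lower. Their list median was 0.24. Hsd17b4, a multifunctional enzyme of this route, had a log2 fold change of -0.99 (limma adjusted p = 0.0896). It was called lower by median of ratios (-1.18, adjusted p = 0.0493) and in edgeR (-0.72, adjusted p = 6.2e-05). Its level was 84.1 and 79.4 RPM with the control hairpin. With the Crat hairpin it was 24.9 and 65.9 RPM (8 and 107 reads), so the replicates differed. Of 10 genes that make or use acetyl groups, the substrate of Crat, 1 rose and 3 fell (1 and 5 by median of ratios), with a list median of -0.41. Citrate synthase, Cs, which joins acetyl-CoA to oxaloacetate, fell by 0.69 on the log2 scale (adjusted p = 0.00190). Acly, which makes acetyl-CoA from citrate, fell by 0.63 (adjusted p = 0.00538) and the thioesterase Acot9 fell by 0.78 (adjusted p = 0.0297). Pdk2, which inhibits pyruvate dehydrogenase, rose by 1.06 ± 0.17 (adjusted p = 0.00189).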

How the data were processed

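Gene expression was measured by RNA sequencing on an Illumina instrument, per the labels' protocols. Kallisto, DESeq2 and the build mRatBN7.2 are listed in the submitters' processing notes. The authors deposited a table of 14318 rows whose signal columns are headed TPM, but 100% of the values are whole multiples of 1 step per library (within 0.02 of a read), so they are RPM and whole reads were recovered. The p-value columns (raw and adjusted) are the authors' deposited test. A repeated identifier was used once.

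Genes were kept from a mean of 1 RPM upward, and log2(RPM + 1) values were fitted with limma 3.58.1 (R 4.3.3) with a variance trend. The Benjamini-Hochberg adjustment was taken over all 12949 genes, two-sided, with a threshold of 0.05. Fold changes on this scale can understate the change of low genes. On reads simulated for Crat hairpin against control hairpin, over 12711 genes, the fit called 9 of 66 genes changed 1.5-fold, 24 of 67 changed 2-fold, 34 of 63 changed 4-fold and 0 of 12515 unchanged genes. Far fewer genes were changed in this simulation than the 2454 called in the data, so its rates need not hold for the data. Alternatives used edgeR 4.0.16, DESeq2 1.42.0 and limma-voom on the reads, other scalings, filters and pseudocounts, thinning to 321516 reads, a replicate block and each library left out. Depth ranged 73.7-fold.

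The shuttle genes and lists were chosen with earlier results of these data known. Named are the 8 shuttle genes; per list up to 4 genes that passed, the largest changes first, or the 2 of highest mean where fewer than 2 passed; the 5 genes most like Crat and Cpt2 with a mean of at least 5 RPM; and 2 markers per list. The values of 1 gene that this rule names are not reported here. No column of samples was left unused.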

Additional observations from a re-analysis of the deposited data

How the results depend on the processing

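Every alternative kept the sign of all 8 log2 fold changes. Crat kept its call under all 16. The Cpt2 log2 fold change ran from 1.80 to 2.17 and lost its call only after thinning, at 2.11. The Cpt1a log2 fold change ran from 1.27 to 1.93 and lost its call without a variance trend, at 1.72, and after thinning, at 1.83. The Slc25a20 log2 fold change lost its call with no filter (0.79), under median-of-ratios scaling (0.60), TMM scaling (0.59), without a variance trend (0.79), in edgeR (0.33), DESeq2 (0.52) and voom (0.29) and after thinning (0.69); with 1 library left out it ran from 0.50 to 1.08. Where all 4 libraries were kept, Cpt1b passed with a mean of at least 5 RPM (0.71), in edgeR (0.70) and in voom (0.73). It ran from 0.55 to 0.86 with a library left out. With all 4 kept, Cpt1c passed with a pseudocount of 2 (0.80), a mean of at least 5 RPM (0.82), in edgeR (0.60) and in voom (0.61). It ran from 0.60 to 1.04 with a library left out. With all 4 kept, Slc22a5 passed in voom alone (0.93), and it ran from 0.79 to 1.04 with a library left out. Crot passed in no alternative that kept all 4 libraries and ran from 0.25 to 0.70 with a library left out.

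The number of shuttle genes that rose was 5 with a mean of at least 5 RPM, 1 without a variance trend, 5 in voom and 0 after thinning (limma; 3 at an unadjusted p under 0.05), and 2 to 6 with a library left out (5 without Crat hairpin replicate 1 and 6 without Crat hairpin replicate 2). Over all genes the number called was 2454, against 345 without a variance trend, 3839 in edgeR, 1611 in DESeq2, 4113 in voom and 102 after thinning, and 594 to 6218 with a library left out. A fit with 1 library in an arm assumes that it varies like the others. After thinning, each library held 321516 reads and Crat hairpin replicate 2 held 7 of Crat. The replicate block changed no call on the shuttle genes and called 2596 genes. The labels name no culture shared by same-numbered libraries, so the numbers were not taken as pairs. Deviations of same-numbered libraries had a correlation of 0.01 over 12949 genes. Counting error in Crat hairpin replicate 1, at 3.11 RPM per read, lowers such a correlation, so it cannot exclude pairs.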
